A study of Mus musculus with 12 samples.

Results

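Solute carriers are the membrane proteins that move sugars, amino acids, ions, metals, nucleosides, vitamins and metabolites across the plasma membrane and the membranes of mitochondria, lysosomes and the Golgi. The 175 genes described here were those whose symbol has the form Slc, a family number, the letter a and a member number, Slc18a2 excepted, and whose mean deposited log2 value was at least 1 in at least 1 of 4 cell populations. They came from 196 such symbols among the 14560 genes of the table, and 21 symbols stayed below that value in every population. The choice used the measured level, so how many of these genes were expressed is a description and not a result. RNA was sequenced from 4 populations sorted from the bone marrow of C57BL/6J mice, with 3 libraries each and 12 in all, and the study's title concerns E-cadherin (CDH1) on cells at the start of the basophil and mast cell path. DN-GMPs, Pro-BMPs and Pre-BMPs shared a progenitor gate: they lacked Gr1, CD11b, Ter119, CD3, B220 and Sca1 and carried CD34, CD16/32 and c-Kit. DN-GMPs lacked surface CDH1 and FceRIa, a chain of the IgE receptor, Pro-BMPs had CDH1 without FceRIa, and Pre-BMPs had FceRIa and are labelled CDH1-negative. Basophils were gated as FceRIa- and CD49b-positive cells without c-Kit, Sca1, Ter119, B220, CD4 or CD8a. The design text names 3 mice and independent triplicates. No label ties a library to a mouse, and none gives an age, a sex or a treatment, so the p-values rest on the spread among these libraries, which may be technical.

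The family is named by sequence, and its members do very different work. Plasma membrane carriers let nutrients in and waste acids out, the Slc25 family carries metabolites and nucleotides across the inner mitochondrial membrane, and vesicular carriers load transmitters or metals into granules. Many amino acid and lactate carriers reach the surface only with a partner glycoprotein, such as the CD98 heavy chain (Slc3a2) or basigin (Bsg). Basophils and mast cells store histamine, and some mast cells serotonin, in granules that depend on such carriers. By substrate, the 175 genes comprised 38 mitochondrial carriers, 27 carriers of iron, zinc, copper, manganese and magnesium, 26 amino acid carriers of the surface and lysosome, and 23 carriers of inorganic ions. Sugars had 15, nucleosides, vitamins, choline and polyamines 12, monocarboxylates, fatty acids and other organic acids 11, monoamines and organic ions 10, and nucleotide sugars 5. The other 8 were not grouped. Among these, Slc9a3r1 and Slc9a3r2 encode scaffold proteins that bind transporters, and Slc4a1ap, Slc7a6os, Slc36a3os and Slc2a4rg-ps are likewise named after a carrier without being one. Slc14a1, a urea transporter, fell in no list.

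Levels are given in CPM, the reads of a gene per 1000000 of the library size that the deposited scale implies, as the mean ± SD of 3 libraries or as the values of the 3 libraries. A gene was called when limma's moderated test on the deposited log2 values, with 1 mean per population and Benjamini-Hochberg adjustment over all 14560 genes, gave an adjusted p under 0.05. Changes are differences of mean log2 values with their standard error (SE), two-sided. A change against a population with libraries at 0 depends on the 0.5 reads that the deposited scale adds. Each carrier's test was repeated in 19 alternative fits, 12 of which leave out 1 library, and a named call held in all of them unless the text says otherwise. Libraries held 29762981 to 42502405 reads on listed genes, and the limit behind a count of 0 was set at 3 reads (0.0512 to 0.0745 CPM by library), which covers counting error only. In sorted bulk samples, fewer cells of a type and less RNA per cell cannot be told apart. The kits did not mark strand, so reads of a carrier and of a gene that overlaps it on the other strand could not be separated. Markers followed the labels in their order: the summed level of 8 basophil markers was 49.4 to 63.4 CPM in DN-GMPs, where Il4, Fcer1a and Cd200r3 had 0 reads, from 421 to 669 in Pro-BMPs, from 3479 to 4341 in Pre-BMPs and from 35232 to 40767 in Basophils. Markers of other lineages were present as well. The 10 neutrophil markers summed to 18761 to 21584, 17484 to 19505, 5382 to 6584 and 3009 to 4151 CPM in the 4 populations in that order, and the 8 eosinophil markers to 26.3 to 48.3, 1912 to 3072, 2280 to 3821 and 254 to 420. The 10 monocyte and macrophage markers summed to 900 to 1218 in DN-GMPs and to at most 477 elsewhere. Of 9 mast cell markers 5 were listed, with sums of 273 to 369, 908 to 1040, 2172 to 2272 and 3457 to 3888. Among them, Cma1 and Tpsb2, proteases of mast cells, were at 141 ± 80.4 and 33.6 ± 24.6 CPM in Pre-BMPs, against 0.554 ± 0.879 and 0.0231 ± 0.0231 in Basophils and at most 1.74 and 0 in the earlier populations. The 5 of 6 megakaryocyte markers listed summed to 41.6 to 83.8, 116 to 158, 344 to 478 and 1191 to 1588, and the 3 of 10 lymphoid markers to 48.3 to 56.8, 46.5 to 56.8, 30.4 to 40.9 and 182 to 199, with Il7r at 118 ± 15.4 in Basophils and at most 0.188 in any other library. Of 8 stromal and endothelial markers only Pecam1 was listed. The part of these lineages in the levels below was not tested.

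Few carriers changed at the first step and many at the last. Between DN-GMPs and Pro-BMPs, 8 of the 175 genes were called higher and 1 lower, against 2.53% of all 14560 genes (2% higher and 0.536% lower) and 2.96% of the 11727 genes that passed the same level rule. Between Pro-BMPs and Pre-BMPs, 8 were higher and 11 lower, against 9.49% of all genes (4.8% higher and 4.69% lower) and 11.2% under the level rule. Between Pre-BMPs and Basophils, 28 were higher and 35 lower, against 30.4% of all genes (13.9% higher and 16.5% lower) and 36.1% under the level rule. Basophils against DN-GMPs, the ends of the order, gave 45 higher and 47 lower, against 46.4% of all genes (23.2% in each direction) and 53.8% under the level rule. The shares of the carriers were 5.14%, 10.9%, 36.0% and 52.6% in that order, near those of genes chosen by the same level rule at all but the first step, which holds 9 calls. Since a gene that passed the rule in 1 population alone had to differ, the counts were repeated for the 146 carriers with a mean of at least 1 over the 12 libraries. They were 5 higher and 1 lower, 7 and 10, 19 and 30, and 32 and 39 in the same order, against 2.8%, 11.5%, 37.1% and 53.8% of all 10148 genes with such a mean. Among the 4 populations, 98 carriers (56.0%) differed by the moderated F-test, against 46.8% of all genes, 54.9% under the level rule and 55% of the 10148. The deposited scale places the median gene 0.10 lower in Basophils than in Pre-BMPs on the log2 scale. If each library is scaled to its total reads on genes instead, the median gene is 0.42 lower in Basophils than in Pre-BMPs and 0.27 lower than in DN-GMPs, and the last step gives 23 higher and 49 lower carriers. At the first step, quantile normalization gave 7 higher and 0 lower. Leaving out Basophil library 1 lowered the carriers called higher at the last step to 18, without Pro-BMP library 2 or 3 those of the first step numbered 5, and without Pro-BMP library 1 those of the step into Pre-BMPs numbered 5.

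**Figure D1:**
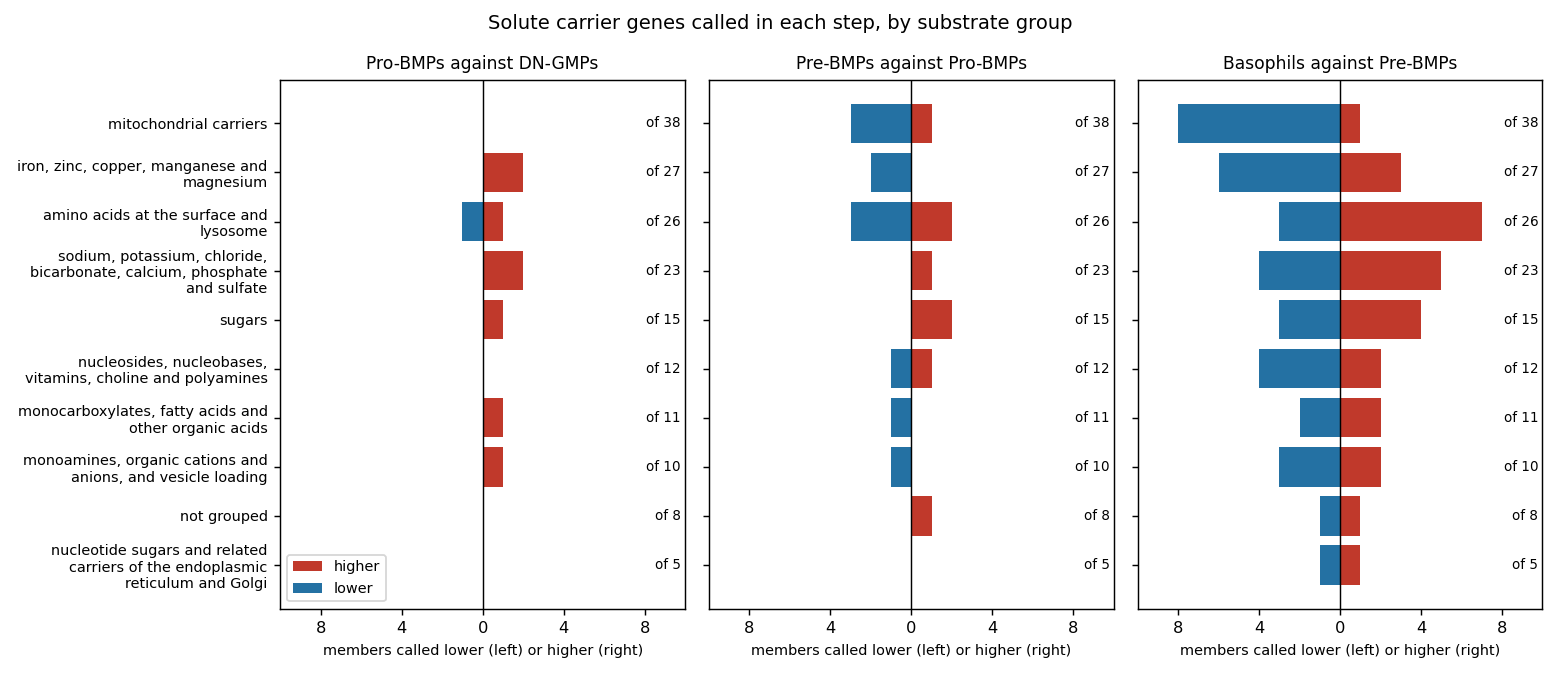
Numbers of solute carrier genes called lower (bars to the left) or higher (bars to the right) in each step, with substrate groups on the vertical axis and group sizes at the right edge. The last step holds most calls. In it, 8 of 38 mitochondrial carriers were lower and 7 of 26 amino acid carriers higher, against 16.5% and 13.9% of all genes. Called either way were 23.7% and 38.5% of these groups, against 30.4% of all genes and 36.1% under the level rule.

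The weight of the groups also shifted. Summed over a group's members, ion carriers went from 296 ± 46.4 CPM in DN-GMPs to 320 ± 29.5, 445 ± 43.0 and 815 ± 48.7 in Pro-BMPs, Pre-BMPs and Basophils (SD, n = 3). Sugar carriers went from 251 ± 40.5 to 324 ± 24.6, 586 ± 93.0 and 859 ± 117. Amino acid carriers stood at 1345 ± 90.5, 1363 ± 29.2, 1436 ± 101 and 2288 ± 174, so that the increase lay in Basophils. Mitochondrial carriers went the other way, from 2707 ± 107 to 2580 ± 94.1, 2184 ± 167 and 1816 ± 80.2. The group of nucleoside, vitamin and choline carriers was highest in DN-GMPs, at 831 ± 125. On the deposited scale it was lowest in Pre-BMPs, at 490 ± 40.7, with 581 ± 34.8 in Basophils. Scaling to total reads on genes lowers the median gene in Basophils against Pre-BMPs by 0.42 on the log2 scale, where the deposited scale gives 0.10. The order of these populations in that group therefore depends on the scale. All the sums here use the deposited scale, are dominated by a few genes and were not tested. Slc25a5 alone made up 29.3% of the mitochondrial sum and Slc22a3 56.6% of the monoamine and organic ion sum.

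**Figure D2:**
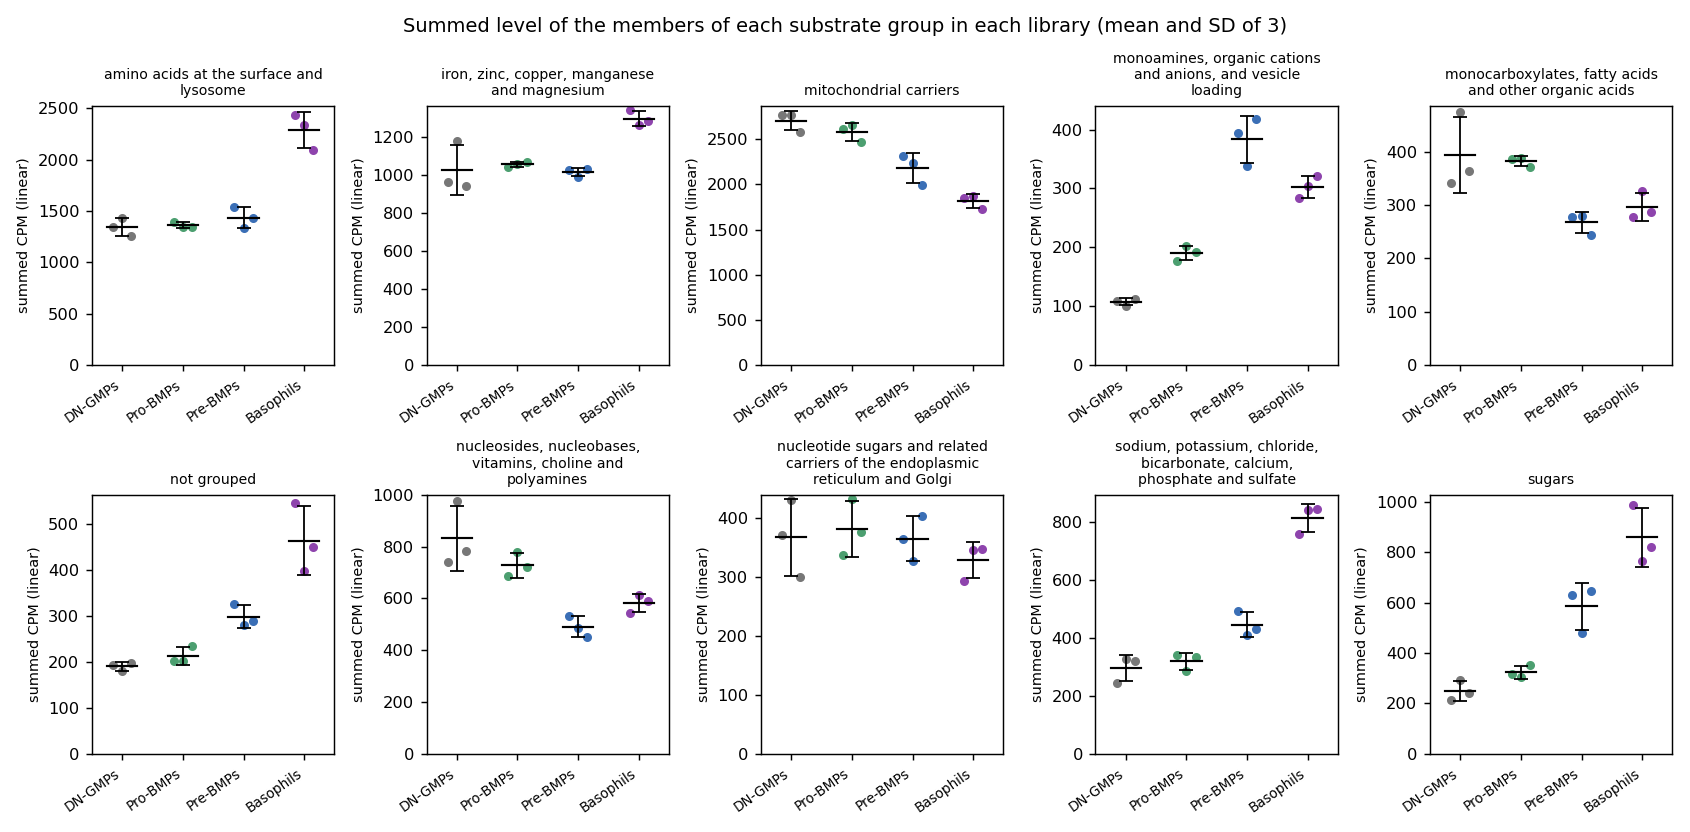
Summed CPM (vertical axes, linear, from 0) of the members of each substrate group in the 12 libraries by population, each point 1 library, each bar a mean of 3 with its SD. The sums of ion and sugar carriers are highest in all 3 Basophil libraries, and the sum of mitochondrial carriers is lowest there.

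Of the CD98 amino acid exchangers, the heavy chain and the light chain Slc7a8 were higher in Basophils than in any other population. Slc7a8 (ENSMUSG00000022180, chromosome 14, 54722209 to 54781946 in GRCm38) encodes LAT2, a light chain that exchanges neutral amino acids when bound to the CD98 heavy chain. It stood at 11.2, 11.3 and 5.12 CPM in the DN-GMP libraries, 74.7, 60.0 and 96.6 in Pro-BMPs, 151, 103 and 121 in Pre-BMPs, with 693, 628 and 539 in Basophils. Every population lay above the one before it without overlap. On the log2 scale it rose by 3.13 into Pro-BMPs, or 8.73-fold (SE 0.294, limma adjusted p = 0.000101), and the rise from Pre-BMPs to Basophils was 2.32 (SE 0.294, limma adjusted p = 0.000136). The step between these was not called (limma adjusted p = 0.174) unless DN-GMP library 3 was left out. Slc3a2, the CD98 heavy chain itself (chromosome 19, 8706882 to 8723369), overlapped across the 3 progenitor populations and was higher in Basophils. Its libraries read 162, 141 and 152 CPM in DN-GMPs, 182, 150 and 163 in Pro-BMPs, 193, 151 and 152 in Pre-BMPs, against 385, 402 and 402 in Basophils, where it rose by 1.27 over Pre-BMPs (SE 0.112, limma adjusted p = 9.46e-06). Another light chain, Slc7a5 (LAT1), averaged 104 ± 13.5, 107 ± 22.0, 67.1 ± 10 and 94.8 ± 12.1 CPM in the 4 populations, and its fall into Pre-BMPs (limma adjusted p = 0.0405) held in 11 of the 19 alternatives. It was lost, with adjusted p up to 0.151, without Pro-BMP library 1 or 2, any Pre-BMP library, DN-GMP library 1 or Basophil library 2, and with the 2 populations fitted alone. Per kilobase of exon, Slc7a5 was above Slc7a8 in DN-GMPs, at 28.0 against 1.84 CPM per kb, and Slc7a8 was above Slc7a5 in Basophils, at 124 against 25.6.

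Slc7a4 was near absent in Basophils, and Slc6a9 was near absent in most libraries before them. Slc7a4, a relative of the cationic amino acid transporters, read 22.4, 17.8 and 24.7 CPM in Pre-BMPs and 0, 0.0463 and 0 in Basophils, a fall by 10.08 (SE 0.609, limma adjusted p = 5.72e-07). All 9 progenitor libraries lay above 9, and no Basophil library reached 0.1. Slc43a1 (LAT3, a carrier of branched-chain amino acids that needs no heavy chain) fell by 3.32 at this step (SE 0.494, limma adjusted p = 0.000436), from 26.1 ± 3.87 to 3.23 ± 2.60. Slc7a1 (CAT1, the main arginine and lysine carrier of many cells) fell earlier: 27.0, 22.5 and 26.1 CPM in Pro-BMPs against 7.48, 11.3 and 6.43 in Pre-BMPs (limma adjusted p = 0.0291). That call was lost without any of the Pro-BMP libraries or without Pre-BMP library 1 or 3, with adjusted p up to 0.109. Slc6a9 (GlyT1, a glycine transporter) had at most 0.0412 CPM in DN-GMPs and in Pre-BMPs, 0, 0 and 1.61 in Pro-BMPs, and 30.8, 17.1 and 9.36 in Basophils. Its rise over Pre-BMPs was 9.71 (SE 1.75, limma adjusted p = 0.00153). Of its exon length, 27.8% overlaps Ccdc24 on the other strand.

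Slc7a11, the cystine and glutamate exchanger xCT, was low and highest in Pro-BMPs, at 3.27, 2.37 and 1.69 CPM there against at most 0.856 in any other library. It fell by 3.98 into Pre-BMPs (SE 0.841, limma adjusted p = 0.0127), a call lost without Pro-BMP library 1 (adjusted p = 0.0545). Its rise from DN-GMPs was not called (limma adjusted p = 0.0543), and was called without Basophil library 2. It is the member nearest above the level rule, with a highest mean of 1.24, followed by Slc44a4 at 1.3 and Slc26a10 at 1.495. Slc30a4, at 0.96, Slc38a5, at 0.74, and Slc23a4, at 0.69, were the nearest below. The RefSeq promoter window of Slc7a11 is shown because Slc7a11 is a textbook target of ATF4, the factor of the amino acid response, whose composite element with C/EBP proteins holds the letters TGATGCAA. The window holds these letters on both strands, in capitals (250 bases before the start, chr3:50443614-50443863, minus strand, GRCm38.p6).
Slc7a11: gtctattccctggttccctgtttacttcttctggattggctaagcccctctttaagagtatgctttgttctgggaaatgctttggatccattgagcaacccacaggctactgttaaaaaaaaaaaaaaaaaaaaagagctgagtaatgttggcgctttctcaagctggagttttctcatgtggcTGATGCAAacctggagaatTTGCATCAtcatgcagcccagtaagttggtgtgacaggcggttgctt
The copies lie 66 and 47 bases before the start. In windows of this length, TGATGCAA occurred on either strand in 0.79% of all 32851 promoters, not limited by level, and in 1.70% of the 177 windows of the carriers. Of 12 measured genes, Atf4 itself and its targets, none was called between DN-GMPs and Pro-BMPs, where 2.53% of all genes were. Into Pre-BMPs, 1 rose and 4 fell. Atf4 was among those that fell, from 145 ± 9.05 to 91.7 ± 9.84 CPM (limma adjusted p = 0.00625). These 5 of 12 compare with 9.49% of all genes called at that step and 11.2% under the level rule. From Pre-BMPs to Basophils 4 rose and 4 fell, 66.7% against 30.4% and 36.1%. Atf4 was among those that rose, to 123 ± 5.67 CPM (limma adjusted p = 0.0218). Phgdh, the first enzyme of serine synthesis, fell to 44.5 ± 6.98 CPM in Basophils from 189 ± 21.8, while Chac1 went from 0.453 ± 0.719 to 31.3 ± 7.41.

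Carriers of glutamine and of the lysosome also changed. Slc38a1 (SNAT1, a sodium-coupled glutamine carrier) was the only carrier called lower between DN-GMPs and Pro-BMPs, from 198, 225 and 194 CPM to 148, 129 and 151. That call held in 8 of 19 alternatives and was lost in those without any 1 of these 6 libraries, Pre-BMP library 2 or Basophil library 3, after quantile normalization, with a replicate block and in a fit of the 2 populations alone (adjusted p up to 0.122). Its relative Slc38a2 (SNAT2) rose at the next step, from 188 ± 22.2 to 255 ± 12.99 CPM (limma adjusted p = 0.024), a call lost without library 1 or 3 of either population (adjusted p up to 0.0901). Slc38a9, the lysosomal carrier that reports arginine to mTORC1, rose from 14.0 ± 2.03 to 28.9 ± 3.67 (limma adjusted p = 0.033), which was lost without any 1 of the 6 libraries or with a replicate block (adjusted p up to 0.119). Of 13 other genes of amino acid sensing at the lysosome, none rose and 1 fell at that step. That is 7.69% of them, against 9.49% of all genes and 11.2% under the level rule. Slc1a5 (ASCT2, a glutamine carrier) was at 193 ± 27.1 CPM in Basophils against 135 ± 28.7 in Pre-BMPs. This difference (limma adjusted p = 0.0277) was not called with quantile normalization, when scaled to total reads (adjusted p up to 0.318), without Pre-BMP library 2 or 3 or Basophil library 1, or with the 2 populations fitted alone. Slc36a2 (PAT2, a proton-coupled carrier of small amino acids) was lower in Basophils than in DN-GMPs, at 0.0771 ± 0.134 against 4.88 ± 2.13 CPM (limma adjusted p = 0.02), a call lost without DN-GMP library 1 or Basophil library 2 or 3 (adjusted p up to 0.0633). Its relative Slc36a3 had 0 reads in DN-GMPs and 2.96, 1.55 and 5.54 CPM in Basophils (limma adjusted p = 0.000934). Over the whole group of 26, Basophils against DN-GMPs gave 8 higher, 9 lower and 9 not called (65.4% called, against 46.4% of all genes and 53.8% under the level rule), with a median change of -0.20 against -0.01 over all genes.

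**Figure D3:**
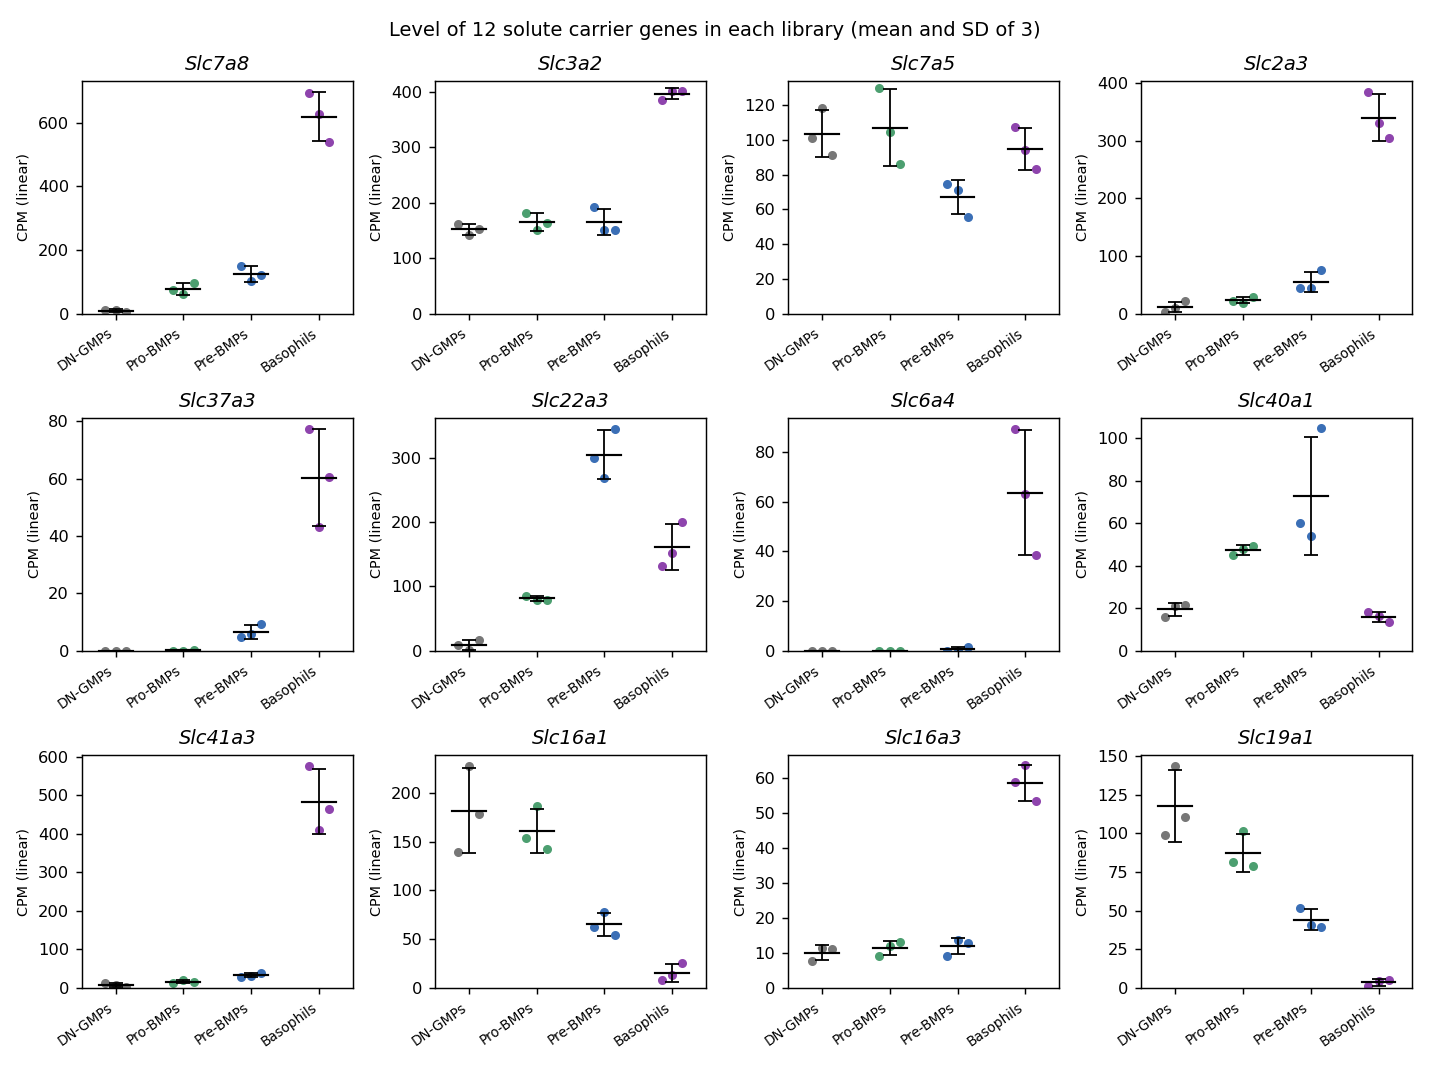
CPM (vertical axes, linear, from 0) of 12 solute carrier genes in the 12 libraries by population, each point 1 library, each bar a mean of 3 with its SD. Slc7a8 climbs in each population to 620 in Basophils, and Slc16a1 drops from 182 in DN-GMPs to 15.6 in Basophils while Slc16a3 reaches 58.4. Slc40a1 and Slc22a3 have their highest means in Pre-BMPs, where neither was called higher than in Pro-BMPs.

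Of the 15 sugar carriers, 4 were higher and 1 was lower in Basophils than in DN-GMPs, 33.3% against 46.4% of all genes and 53.8% under the level rule. Slc2a3 (chromosome 6, 122727809 to 122801640), which encodes the high-affinity glucose transporter GLUT3, read 2.91, 10.05 and 21.4 CPM in DN-GMPs, 21.5, 18.3 and 28.5 in Pro-BMPs, 44.1, 45.1 and 74.8 in Pre-BMPs, followed by 384, 330 and 305 in Basophils. Only DN-GMPs and Pro-BMPs overlapped. The rise of 2.67 into Basophils was called (SE 0.549, limma adjusted p = 0.00346), and the 2 earlier steps were not (limma adjusted p = 0.274 and 0.201). Slc2a1 (GLUT1) was at 19.4 ± 8.43, 16.1 ± 13.2, 15.1 ± 1.81 and 50.6 ± 11.01 CPM. Its difference between Basophils and Pre-BMPs was not called (limma adjusted p = 0.0856), although all 3 Basophil libraries lay above all other libraries. With voom weights, or without Pro-BMP library 1 or 3, it was called. Per kilobase of exon, GLUT3 was at 46.9 and GLUT1 at 14.4 CPM per kb in Basophils, and at 1.58 and 5.53 in DN-GMPs. Slc2a6 (GLUT6, found on lysosomes) read 8.94, 8.32 and 7.08 CPM in DN-GMPs, 0, 2.63 and 1.3 in Pro-BMPs, 3.74, 1.57 and 1.15 in Pre-BMPs, with 172, 118 and 126 in Basophils. It thus dipped in the 2 intermediate populations, and the rise of 6.17 from Pre-BMPs was called (SE 1.56, limma adjusted p = 0.0109). Against DN-GMPs it missed the threshold, with a limma adjusted p of 0.0502, and was called in 7 alternatives, among them those without any 1 of the Pro-BMP libraries.

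Slc37a3, of the sugar phosphate exchanger family, was at 0, 0 and 0.0248 CPM in DN-GMPs, 0.0210, 0.0216 and 0.171 in Pro-BMPs, 4.66, 5.89 and 9.27 in Pre-BMPs, against 77.1, 43.3 and 60.4 in Basophils. It was near absent without surface FceRIa and present in every library with it. The rise into Pre-BMPs was 6.81 (SE 0.838, limma adjusted p = 0.000507), and a further rise of 3.21 (limma adjusted p = 0.0131) was lost without Pre-BMP library 1 or Basophil library 1. Slc45a3 and Slc45a4, members of a family related to plant sucrose carriers, instead peaked in Pre-BMPs. Slc45a4 (chromosome 15, 73577424 to 73645762) read 31.1, 29.1 and 25.5 CPM in DN-GMPs, 68.6, 51.4 and 78.4 in Pro-BMPs, 139, 130 and 150 in Pre-BMPs, followed by 43.3, 38.2 and 29.96 in Basophils. It rose by 1.19 and by 1.10 in the first 2 steps (limma adjusted p = 0.00513 and 0.00418) and fell by 1.92 in the last (SE 0.188, limma adjusted p = 1.96e-05). It was the only carrier called in all 3 steps. Slc45a3 went from 2.96 ± 3.04 to 40.7 ± 5.87, 213 ± 58.3 and 15.9 ± 5.97 CPM. Its fall into Basophils (limma adjusted p = 0.0481) was lost without any 1 Pro-BMP, Pre-BMP or Basophil library, with adjusted p up to 0.12. Neither the rise of Slc45a3 into Pro-BMPs nor that into Pre-BMPs was called. The summed eosinophil markers given above were also highest in Pre-BMPs and low in DN-GMPs. Of these 8 markers, however, Il5ra and Prg3 were highest in Pro-BMPs, and only Ear2 was called higher in Pre-BMPs than in Pro-BMPs. A link between these markers and the carriers was not tested. Slc50a1 (SWEET1) was also higher in Basophils, at 119 ± 20.5 against 62.0 ± 1.58 CPM (limma adjusted p = 0.00432).

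The 2 main carriers of lactate and pyruvate moved in opposite directions. Slc16a1 (ENSMUSG00000032902, chromosome 3, 104638668 to 104658462) encodes MCT1, which moves lactate in either direction. It read 140, 228 and 179 CPM in DN-GMPs, 153, 186 and 143 in Pro-BMPs, 62.2, 78.2 and 54.5 in Pre-BMPs, with 7.75, 13.3 and 25.8 in Basophils. DN-GMPs and Pro-BMPs overlapped, and each later population lay below them. The fall of 1.31 into Pre-BMPs (limma adjusted p = 0.0405) was lost without any 1 Pro-BMP or Pre-BMP library, DN-GMP library 3 or Basophil library 2, with adjusted p up to 0.139, while the fall of 2.21 into Basophils held throughout (SE 0.355, limma adjusted p = 0.000724). Slc16a3, the lactate exporter MCT4, was at 7.54, 11.4 and 11.1 CPM in DN-GMPs and 9.21, 13.7 and 12.7 in Pre-BMPs, against 58.7, 63.5 and 53.2 in Basophils, a rise of 2.32 (SE 0.258, limma adjusted p = 5.43e-05). Per kilobase of exon, MCT1 exceeded MCT4 in DN-GMPs, at 41.1 against 1.89 CPM per kb, and MCT4 exceeded MCT1 in Basophils, at 10.99 against 3.53. Basigin (Bsg), the chaperone of both, was at 320 ± 11.7, 319 ± 21.9, 309 ± 22.5 and 274 ± 13.5 CPM, and its relative Emb fell from 622 ± 20.0 in DN-GMPs to 167 ± 26.9 in Pre-BMPs and stood at 526 ± 35.1 in Basophils. The promoter window of Slc16a1 is shown because MCT1 is a known target of MYC, which binds the E-box CACGTG. Capitals mark that motif and a TGCGCNC match (250 bases, chr3:104638414-104638663, plus strand, GRCm38.p6).
Slc16a1: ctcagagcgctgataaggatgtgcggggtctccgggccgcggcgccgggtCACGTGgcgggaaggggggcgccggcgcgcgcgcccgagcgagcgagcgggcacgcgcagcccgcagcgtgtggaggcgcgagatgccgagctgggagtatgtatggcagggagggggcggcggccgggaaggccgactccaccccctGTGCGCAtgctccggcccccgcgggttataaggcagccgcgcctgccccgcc

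Other carriers of organic acids varied more between libraries. Slc16a7 (MCT2) fell from 8.18 ± 2.72 CPM in Pre-BMPs to 1.99 ± 1.64 in Basophils (limma adjusted p = 0.0411), a call that held in 8 of 19 alternatives and was lost without any 1 Pro-BMP or Pre-BMP library or DN-GMP library 3, with quantile normalization, voom weights or a replicate block, and in a fit of the 2 populations alone (adjusted p up to 0.126). Slc27a3, of the fatty acid transport proteins, had 0, 0.0618 and 0 CPM in DN-GMPs and 1.05, 0.560 and 1.26 in Pro-BMPs. That rise of 5.44 (limma adjusted p = 0.00693) was not called with voom weights or with the 2 populations fitted alone. Slc27a4, another of these proteins, read 69.6, 58.9 and 48.2 CPM in Basophils against 17.4, 15.3 and 15.6 in Pre-BMPs, without overlap. It was not called (limma adjusted p = 0.53), and was called without Pro-BMP library 1, which had 0 reads.

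The monoamine carriers Slc6a4 and Slc18a1 rose in the last step. Of the 10 carriers of monoamines and organic ions, 3 were higher and 2 lower in Basophils than in DN-GMPs. That is 50%, against 46.4% of all genes and 53.8% under the level rule. Among the 6 with a mean of at least 1 over all libraries, 1 was higher and 0 lower. That is 16.7%, against 53.8% of all genes with such a mean. Slc6a4 and Slc18a1 are not among these 6, since they passed the level rule only through populations where they are high. The mean was highest in Basophils for 2 of the 10 and in DN-GMPs for 4. Slc6a4 (ENSMUSG00000020838, chromosome 11, 76998603 to 77032340), the serotonin reuptake transporter, had 0 reads in all 6 DN-GMP and Pro-BMP libraries, 0, 0 and 1.63 CPM in Pre-BMPs, and 89.3, 63.3 and 38.6 in Basophils. Its level in Basophils was at least 956-fold higher than in DN-GMPs, counting 3 reads per library as the limit of a count of 0. The rise over Pre-BMPs was 10.12 (SE 1.68, limma adjusted p = 0.000922). Slc18a1 (VMAT1, which loads amines into granules) was at 0.386, 0.230 and 0.211 CPM in Pre-BMPs and 14.1, 22.1 and 12.3 in Basophils, a rise of 5.83 (SE 1.40, limma adjusted p = 0.00844). Slc22a3 (OCT3, a bidirectional carrier of histamine and other organic cations) came earlier. It read 8.66, 0.823 and 17.3 CPM in DN-GMPs, 85.8, 79.1 and 79.3 in Pro-BMPs, 300, 269 and 344 in Pre-BMPs, against 132, 152 and 201 in Basophils. None of the 4 populations overlapped another. The rise of 4.02 into Pro-BMPs (limma adjusted p = 0.0223) was lost whichever Pro-BMP library was left out, with adjusted p up to 0.145. The difference between Pre-BMPs and Basophils was not called (limma adjusted p = 0.425), and was called with voom weights, without DN-GMP library 2 and with the 2 populations fitted alone. Slc22a3 against DN-GMPs was higher in Basophils by 4.99 (SE 0.806, limma adjusted p = 0.00039).

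Of 5 measured genes that make or break down monoamines, Hdc, the histidine decarboxylase that makes histamine, rose in the first step, from 281 ± 58.2 to 749 ± 18.7 CPM (limma adjusted p = 9.07e-05). It rose again in the last, to 1707 ± 167. Maoa and Hnmt, which degrade monoamines and histamine, fell in the last step, Maoa from 17.2 ± 6.66 to 0.632 ± 1.10 and Hnmt from 23.7 ± 4.97 to 7.05 ± 4.21 (limma adjusted p = 0.00199 and 0.00669). The other 2, also degrading enzymes, were not called lower there. Maob went from 0 reads to 1.52 ± 1.16 (limma adjusted p = 0.0453), and Aoc1, the diamine oxidase, was higher in Basophils than in DN-GMPs, at 9.53 ± 3.60 against 0.288 ± 0.499 (limma adjusted p = 0.00104), with 11.1 ± 5.27 in Pre-BMPs. Slc22a18 had 8.17, 4.75 and 4.56 CPM in Pre-BMPs and 0 reads in every Basophil library, at least 84.1-fold lower. Slc22a4, which takes up ergothioneine, fell into Pre-BMPs from 31.7 ± 3.82 to 10.6 ± 6.90 CPM (limma adjusted p = 0.0402). This call was lost without any 1 DN-GMP, Pro-BMP or Basophil library and with the 2 populations fitted alone (adjusted p up to 0.109), and 1 Pre-BMP library, at 2.68 CPM, lay well below the other 2, at 14.8 and 14.5.

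The main carriers that let iron out of cells and into the cytosol had their highest mean in Pre-BMPs. Slc40a1 (ferroportin, the only known iron exporter; chromosome 1, 45908068 to 45926523) read 15.9, 21.1 and 21.3 CPM in DN-GMPs, 44.9, 47.6 and 49.4 in Pro-BMPs, 60.1, 53.8 and 105 in Pre-BMPs, followed by 17.9, 16.3 and 13.4 in Basophils. DN-GMPs and Basophils overlapped and both lay below the other 2 populations. The rise of 1.3 into Pro-BMPs (limma adjusted p = 0.0179) was lost with voom weights and without DN-GMP library 1 or any 1 Pro-BMP library (adjusted p up to 0.0722), and the fall into Basophils was 2.14 (limma adjusted p = 7.57e-05). Slc11a2 (DMT1, which brings iron into the cytosol) had its highest mean there too, at 17.2 ± 5.02, 32.6 ± 9.99, 54.1 ± 8.58 and 15.1 ± 7.20 CPM. It fell by 1.97 in the last step (SE 0.401, limma adjusted p = 0.00327). Neither Slc40a1 nor Slc11a2 was called higher in Pre-BMPs than in Pro-BMPs, and Slc11a2 was not called between DN-GMPs and Pro-BMPs. Tfrc, the transferrin receptor, was highest in Pro-BMPs, at 127 ± 27.8, and fell to 51.5 ± 9.40 in Pre-BMPs and 13.6 ± 3.72 in Basophils. Of 15 measured genes of iron uptake, storage and sensing, 3 rose and 6 fell in the last step, 60% against 30.4% of all genes and 36.1% under the level rule. The mitochondrial iron carrier Slc25a37 (mitoferrin) stood at 8.16 ± 1.18 CPM in Basophils against 21.5 ± 3.34 in Pre-BMPs (limma adjusted p = 0.0178), a call lost without Pre-BMP library 1 or 3 or Basophil library 2 (adjusted p up to 0.0577). Slc48a1 (HRG1, a heme carrier of endosomes) was at 166 ± 14.8, 186 ± 13.1, 230 ± 12.4 and 232 ± 10.8, higher in Basophils than in DN-GMPs (limma adjusted p = 0.00122), except when scaled to total reads (adjusted p = 0.0547). Erythroid markers moved in the same direction as ferroportin and DMT1: 7 of 10 were listed, summing to 2.61 to 4.03 CPM in DN-GMPs, from 5.29 to 10.5 in Pro-BMPs, from 51.4 to 64.3 in Pre-BMPs and from 4.43 to 7.73 in Basophils. Alas2 had 0 reads in DN-GMPs and Basophils. Their part in the iron carriers was not tested.

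Among magnesium carriers, the 3 genes of the Slc41 family went different ways. Slc41a3 (ENSMUSG00000030089, chromosome 6, 90604725 to 90646412) is reported to act at mitochondria. It read 13.01, 6.03 and 1.44 CPM in DN-GMPs, 12.1, 19.7 and 14.2 in Pro-BMPs, 28.9, 30.1 and 37.9 in Pre-BMPs, with 575, 411 and 465 in Basophils. All Basophil libraries lay far above the rest, and the rise over Pre-BMPs was 3.90, or 14.9-fold (SE 0.592, limma adjusted p = 0.000498). Slc41a2 went from 0.0259 ± 0.0292 to 8.10 ± 4.67 CPM at that step, a rise of 8.08 (SE 1.37, limma adjusted p = 0.00104). Slc41a1, a sodium and magnesium exchanger of the surface, fell from 10.7 ± 1.43 to 0.902 ± 1.56, with 0 reads in 2 of 3 Basophil libraries (limma adjusted p = 0.00633). Per kilobase of exon, Slc41a3 was the carrier with the third highest level in Basophils, at 166 CPM per kb, after Slc25a5 at 238 and the scaffold gene Slc9a3r1 at 199. Its promoter window is shown as that of the most abundant metal carrier per kilobase in Basophils, and it holds a CACGTG motif and, overlapping it, a TGCACNC match on the other strand (250 bases, chr6:90618996-90619245, plus strand, GRCm38.p6). The RefSeq start that it precedes lies inside the span of the gene given above, not at its first base.
Slc41a3: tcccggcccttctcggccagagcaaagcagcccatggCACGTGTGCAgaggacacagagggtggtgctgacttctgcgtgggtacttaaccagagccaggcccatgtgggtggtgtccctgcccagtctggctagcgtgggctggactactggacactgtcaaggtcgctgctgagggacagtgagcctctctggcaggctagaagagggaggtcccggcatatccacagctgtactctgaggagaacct

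Zinc carriers moved in both directions. The importers Slc39a8 (ZIP8), Slc39a10 (ZIP10) and Slc39a11 (ZIP11) fell from 10.6 ± 0.769, 21.2 ± 7.58 and 84.5 ± 14.8 CPM in Pre-BMPs to 3.70 ± 2.39, 5.76 ± 2.07 and 30.4 ± 8.95 in Basophils (limma adjusted p = 0.00673, 0.0014 and 0.00113). Slc39a3 (ZIP3), of the same family, was instead higher in Basophils than in DN-GMPs, with libraries at 39.6, 39.0 and 28.6 against 10.8, 7.18 and 15.1 CPM (limma adjusted p = 0.00102). Slc30a2 (ZnT2, which loads zinc into vesicles) had 0.0212, 0 and 0 CPM in DN-GMPs, 4.15, 0.970 and 1.78 in Pro-BMPs, 4.47, 1.25 and 6.32 in Pre-BMPs, against 14.5, 14.7 and 14.3 in Basophils. It was near 0 in DN-GMPs alone, and its rise of 6.92 into Pro-BMPs (SE 0.788, limma adjusted p = 0.000416) was lost with voom weights (adjusted p = 0.0733). Slc39a4 (ZIP4) was at 18.5, 19.4 and 21.3 CPM in Basophils and at 3.78 or less in all other libraries. Its rise over Pre-BMPs (limma adjusted p = 0.0378) was lost without any 1 Basophil library, Pre-BMP library 1 or 3 or Pro-BMP library 1, with adjusted p up to 0.143. The zinc-binding metallothionein Mt1 fell in the last 2 steps, from 114 ± 13.4 to 37.0 ± 11.5 and 2.50 ± 0.570 CPM. Copper carriers fell as well: Slc31a2 (CTR2) read 38.3, 37.5 and 42.1 in Pro-BMPs and 7.62, 6.88 and 6.41 in Pre-BMPs, a fall by 2.49 (SE 0.318, limma adjusted p = 0.000632), and Slc31a1 (CTR1) was lower in Basophils than in DN-GMPs by 1.42 (limma adjusted p = 0.000324). Of the 27 metal carriers, 5 were higher and 8 lower in Basophils than in DN-GMPs, 48.1% against 46.4% of all genes and 53.8% under the level rule.

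**Figure D4:**
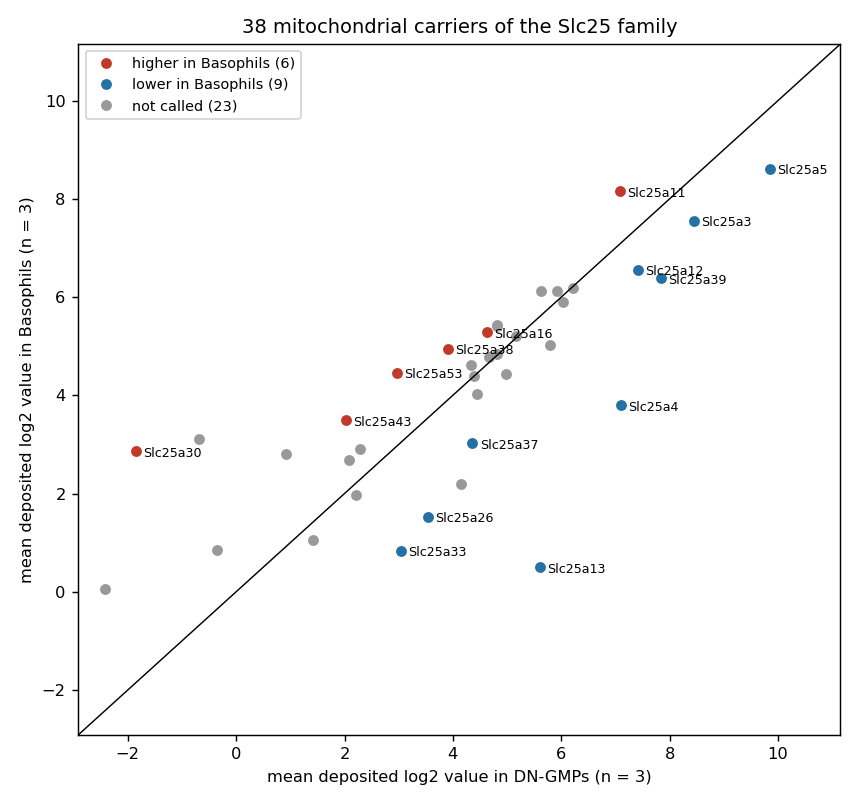
Mean deposited log2 value of 38 mitochondrial carriers in DN-GMPs (horizontal axis) and Basophils (vertical axis), each the mean of 3 libraries, with the line of equal values. The 9 carriers called lower include the most abundant ones, Slc25a5 and Slc25a3, and the 6 called higher include Slc25a11.

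The most abundant mitochondrial carriers were lower in Basophils than in DN-GMPs, by steps for ANT2 and the glutathione carrier. Slc25a5 (ENSMUSG00000016319, chromosome X, 36795651 to 36798807) encodes ANT2, the ADP and ATP exchanger of growing cells, and had the highest level per kilobase of all 175 genes in every population. It read 978, 909 and 887 CPM in DN-GMPs, 796, 874 and 782 in Pro-BMPs, 639, 649 and 474 in Pre-BMPs, followed by 371, 410 and 394 in Basophils. Neighbouring populations did not overlap. It fell by 0.49 into Pre-BMPs (limma adjusted p = 0.0157, lost without Pro-BMP library 2 and with the 2 populations fitted alone, adjusted p up to 0.069) and by 0.57 into Basophils (SE 0.107, limma adjusted p = 0.00203). Slc25a4 (ANT1, the isoform of muscle and heart) was at 137 ± 6.96, 104 ± 12.8, 80.9 ± 15.2 and 13.9 ± 1.73 CPM, and its fall in the last step was 2.53 (SE 0.164, limma adjusted p = 9.26e-07). Slc25a3, the phosphate carrier, was lower in Basophils than in DN-GMPs by 0.90 (SE 0.0949, limma adjusted p = 1.61e-05). Slc25a39, which brings glutathione into mitochondria, went from 229 ± 7.42 to 203 ± 8.71, 119 ± 6.44 and 83.7 ± 11.5, with falls of 0.76 and 0.52 in the last 2 steps (limma adjusted p = 0.00116 and 0.0035).

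Carriers of the malate and aspartate shuttle, which brings reducing equivalents from the cytosol into mitochondria, diverged. Slc25a13 (citrin, an aspartate and glutamate exchanger) read 44.0, 53.6 and 49.2 CPM in DN-GMPs, 35.7, 34.4 and 35.7 in Pro-BMPs, 17.8, 14.9 and 12.7 in Pre-BMPs, with 3.72, 2.43 and 0.300 in Basophils. The 4 populations did not overlap, and the fall of 3.41 into Basophils was called (SE 0.694, limma adjusted p = 0.00329). Its paralog Slc25a12 (aralar) had 172 ± 27.7, 156 ± 40.4, 94.2 ± 7.60 and 94.1 ± 7.52 CPM in the 4 populations, and was lower in Basophils than in DN-GMPs by 0.86 (limma adjusted p = 0.00199). Slc25a11, which exchanges malate for oxoglutarate, was higher in Basophils than in DN-GMPs, at 286 ± 26.3 against 137 ± 19.3 CPM, by 1.07 (SE 0.168, limma adjusted p = 0.000322). Slc25a1, the citrate carrier that supplies acetyl groups for lipid synthesis, peaked in Pre-BMPs: 74.3 ± 7.58, 105 ± 9.79, 159 ± 15.0 and 73.0 ± 10.6. Its rise into Pre-BMPs was 0.61 (limma adjusted p = 0.0194, lost without Pro-BMP library 2 or Pre-BMP library 1, adjusted p up to 0.0816), and its fall into Basophils 1.13 (limma adjusted p = 0.000105). The promoter window of Slc25a13 is shown as that of a carrier whose mean was lower in each population than in the one before, and it holds 1 CACGTG motif, 125 bases before the start (250 bases, chr6:6217174-6217423, minus strand, GRCm38.p6).
Slc25a13: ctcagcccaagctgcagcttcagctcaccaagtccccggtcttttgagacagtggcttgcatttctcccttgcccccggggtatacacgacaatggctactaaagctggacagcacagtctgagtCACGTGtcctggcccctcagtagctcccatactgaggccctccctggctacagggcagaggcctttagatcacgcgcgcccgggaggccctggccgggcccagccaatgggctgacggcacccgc
Over all 38 mitochondrial carriers, 6 were higher and 9 lower in Basophils than in DN-GMPs (39.5%, below the 46.4% of all genes and 53.8% under the level rule), with a median change of 0.03 against -0.01 over all genes. Beyond the Slc symbols, 5 of 11 measured genes of mitochondrial transport rose in the last step and none fell, 45.5% against 30.4% of all genes and 36.1% under the level rule. Mpc2, a subunit of the pyruvate carrier, went from 47.0 ± 7.51 to 359 ± 26.7 CPM (limma adjusted p = 3.44e-07).

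Carriers of nucleosides and folate were highest early. Slc19a1 (ENSMUSG00000001436, chromosome 10, 77032241 to 77061002), the reduced folate carrier, read 99.0, 143 and 111 CPM in DN-GMPs, 81.5, 101 and 78.8 in Pro-BMPs, 51.9, 40.8 and 39.5 in Pre-BMPs, against 0.948, 4.35 and 5.33 in Basophils. DN-GMPs and Pro-BMPs overlapped at 1 library, and the fall into Basophils was 3.96 (SE 0.504, limma adjusted p = 0.000141). Slc28a2 (CNT2, a concentrating purine nucleoside carrier) was highest in Pro-BMPs, at 171, 179 and 186 CPM, against 62.2, 161 and 112 in DN-GMPs. It fell by 1.38 into Pre-BMPs and by 3.07 into Basophils (SE 0.276 each, limma adjusted p = 0.00942 and 1.05e-05), where it stood at 8.23 ± 1.38. Slc29a1 (ENT1, an equilibrative nucleoside carrier) went from 105 ± 4.14 to 34.9 ± 11.1 CPM between DN-GMPs and Basophils (limma adjusted p = 5.01e-05), and Slc29a2 (ENT2) from 7.33 ± 0.586 to 0.00769 ± 0.0133, with reads in 1 of 3 Basophil libraries. Slc43a3, a purine nucleobase carrier, fell by 1.35 over the same interval (limma adjusted p = 0.000139). In contrast, Slc23a2 (SVCT2, the vitamin C transporter of most tissues) rose in Basophils, from 36.7, 18.0 and 18.8 CPM in Pre-BMPs to 69.3, 110 and 126, by 2.09 (SE 0.372, limma adjusted p = 0.00142). Slc44a2, a choline transporter-like protein, rose by 1.21 at this step (SE 0.15, limma adjusted p = 0.000116), from 131 ± 19.2 to 303 ± 40.6. Of the 12 genes, 2 were higher and 7 lower in Basophils than in DN-GMPs (75% against 46.4% of all genes and 53.8% under the level rule), a median change of -1.65 against -0.01 over all genes.

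Proton exchangers of organelles moved in both directions, and the calcium exchangers Slc8a1 and Slc24a3 were higher in Basophils than in DN-GMPs. Slc9a9 (chromosome 9, 94669909 to 95230445) encodes NHE9, a proton exchanger of endosomes. Its libraries read 10.1, 11.8 and 8.67 CPM in DN-GMPs, 12.3, 9.504 and 10.9 in Pro-BMPs, 92.4, 47.3 and 63.2 in Pre-BMPs, followed by 121, 176 and 216 in Basophils. The 2 populations without surface FceRIa overlapped (limma adjusted p = 0.922), and it rose by 2.59 into Pre-BMPs and 1.35 into Basophils (SE 0.277 each, limma adjusted p = 0.000191 and 0.00335). Slc9a7 (NHE7, of the Golgi) went the other way: 3.91, 8.54 and 5.29 CPM in DN-GMPs, 1.22, 2.28 and 1.09 in Pre-BMPs, and 0 reads in all Basophil libraries, at least 22.1-fold lower than in Pre-BMPs. Slc8a1 (NCX1, a sodium and calcium exchanger) appeared in Pro-BMPs, at 5.43, 1.79 and 1.88 CPM against 0, 0 and 0.248 in DN-GMPs. That rise of 6.44 (limma adjusted p = 0.0084) was not called with voom weights or with the 2 populations fitted alone. Slc8a1 was higher in Basophils than in DN-GMPs by 9.01 (limma adjusted p = 4.84e-05). Slc24a3 (NCKX3, a potassium-dependent exchanger of the same kind) was at 117, 104 and 133 CPM in Basophils against 13.9, 8.72 and 15.5 in Pre-BMPs, a rise of 3.25 (SE 0.457, limma adjusted p = 0.000294). Slc26a3, a chloride and bicarbonate exchanger best known from the colon, had 0 reads in DN-GMPs, 0, 0 and 2.05 CPM in Pro-BMPs, 0, 2.32 and 1.90 in Pre-BMPs, with 41.9, 69.5 and 55.9 in Basophils. It was at least 837-fold higher in Basophils than in DN-GMPs, and its rise over Pre-BMPs (limma adjusted p = 0.0298) was lost without any 1 Basophil library or Pre-BMP library 1 (adjusted p up to 0.103).

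A carrier that helps to set cell volume fell as well. Slc12a7 (KCC4, a potassium and chloride cotransporter) fell from 11.8, 10.2 and 6.89 CPM in Pre-BMPs to 3.10, 0 and 0 (limma adjusted p = 0.0109), a call lost with voom weights and with the 2 populations fitted alone. Of the 23 ion carriers, 10 were higher and 5 lower in Basophils than in DN-GMPs (65.2% against 46.4% of all genes and 53.8% under the level rule), a median change of 1.08 against -0.01. Among the 18 with a mean of at least 1 over all libraries, 7 were higher and 4 lower, with a median of 1.02.

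Of the 5 nucleotide sugar carriers, which supply the Golgi, Slc35a5 rose in Basophils from 25.1 ± 12.1 to 80.0 ± 13.1 CPM (SE 0.324, limma adjusted p = 0.00175). Slc35a4 fell from 217 ± 12.7 to 137 ± 20.0 (limma adjusted p = 0.0127), a call lost without Basophil library 1 (adjusted p = 0.0523). Slc35a1, the carrier of CMP-sialic acid, and Slc35a2, that of UDP-galactose, were called in none of the 4 comparisons. Slc9a3r1 (NHERF1), a scaffold and no carrier, rose in each of the last 2 steps, with 108, 117 and 144 CPM in Pro-BMPs, 222, 178 and 202 in Pre-BMPs, against 446, 333 and 368 in Basophils (limma adjusted p = 0.00955 and 0.000528).

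**Figure D5:**
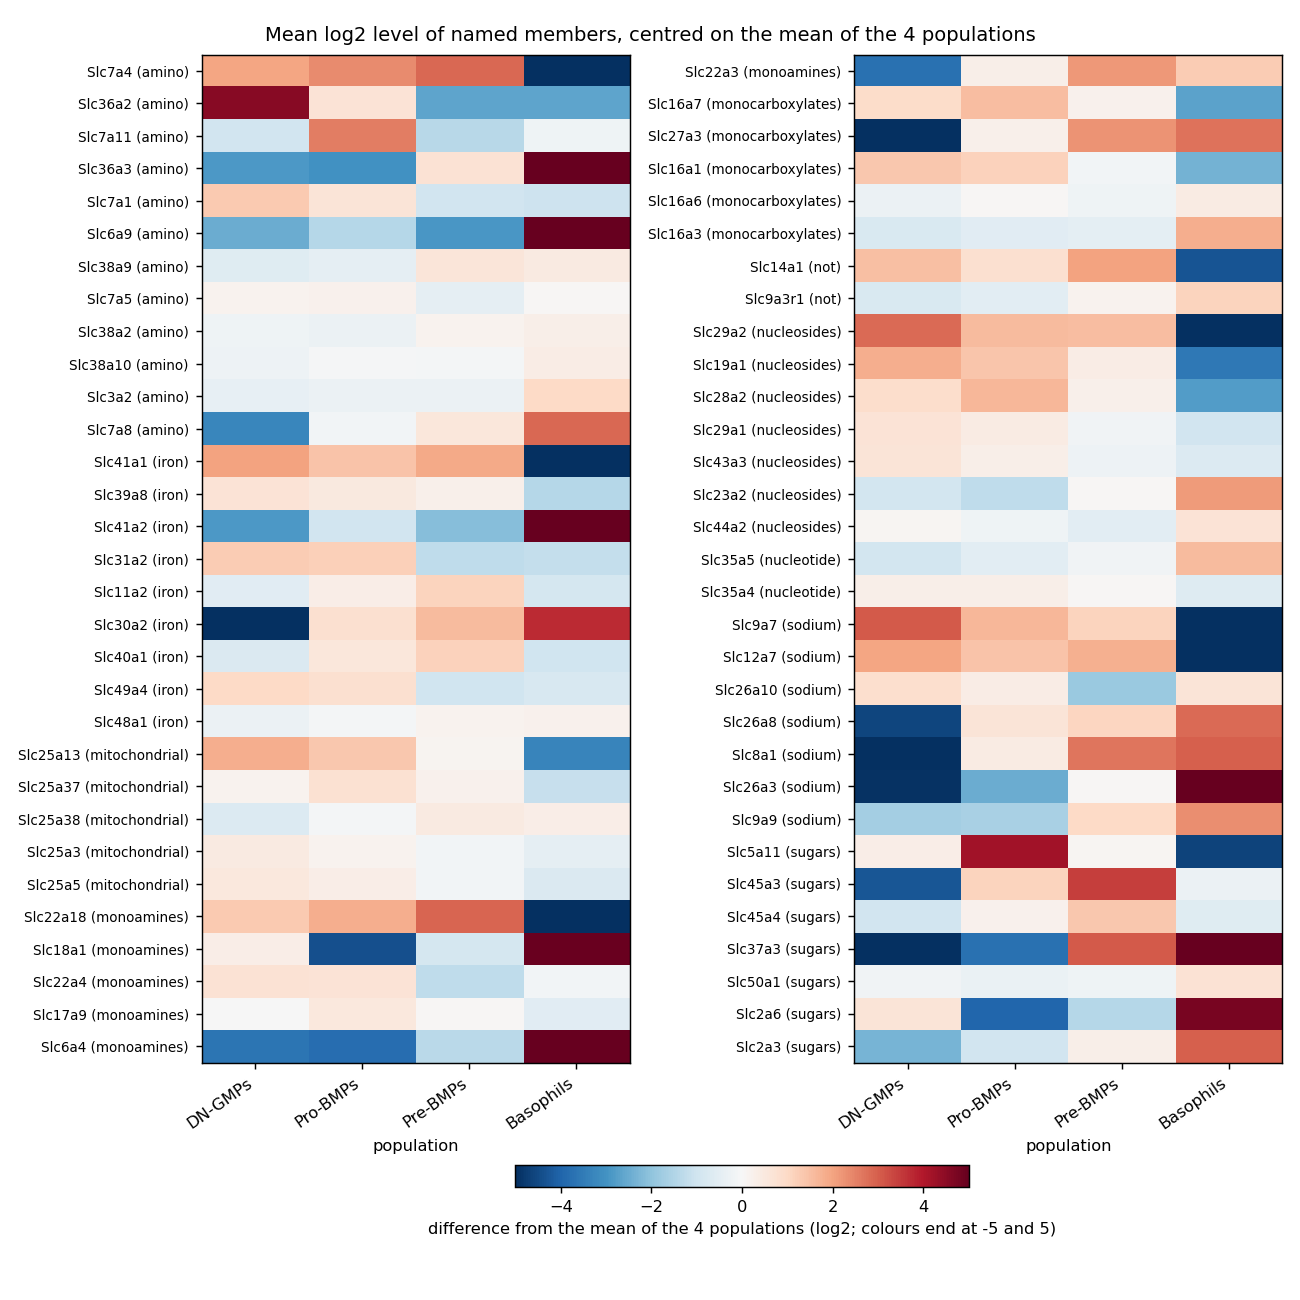
Mean log2 level of 62 named carriers that differed among the populations by the F-test, each centred on its mean over the 4 populations (columns), ordered by substrate group, the first word of which stands in brackets. Red is above and blue below that mean, with colours ending at 5; for example, Slc6a4 and Slc41a2 are red in Basophils alone, and Slc7a4 and Slc9a7 are blue there.

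Promoter letters were compared with all RefSeq windows of the same length, 250 bases before each start in GRCm38.p6, on both strands. A window was found for 132 of the 175 genes, with 177 windows in all. CACGTG, the palindromic E-box bound by MYC and by MITF and TFE factors, occurred in 13.6% of the carriers' windows and in 6.02% of all 32851. By direction between DN-GMPs and Basophils, it was present for 11 of 34 genes called lower, among them Slc16a1, Slc25a13, Slc29a1, Slc43a1, Slc39a8 and Slc49a4. It was present for 3 of 34 called higher, Slc35a5, Slc37a3 and Slc41a3, and for 9 of 64 not called. The 6.02% counts windows of promoters not limited by level, whereas the counts by direction are of genes, some with several windows. The share among all genes called lower or higher was not measured. The counts by direction are therefore no result about the carriers. AGATAA, letters bound by GATA factors, occurred in 7.35% of the carriers' windows and 9.99% of all. The metal response element core appears as TGCGCNC or TGCACNC, and these occurred in 15.8% and 11.3% of the carriers' windows against 12.5% and 10.4% of all. Such matches describe the letters and not the binding of a factor, and the shares were not tested.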

How the data were processed

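RNA of 12 libraries of double-sorted bone marrow cells was made into SmartSeq v4 and Nextera XT libraries, which keep no strand, per the labels' protocols. The submitters' processing notes name Trimmomatic, STAR, HTSeq and deepTools. Neither versions nor a genome build is given in the sources used here. Coordinates and exon lengths come from the GENCODE annotation of GRCm38, matched by gene identifier. The authors deposited 1 log2 value per gene and library. All of these values correspond, within 0.001, to a whole number of reads plus 0.5 per 1000000 of a scaled library size, and 3 rows that name no gene were left out of tests. The row of reads that mapped to more than 1 place equals 8.51 to 12.1% of all reads. CPM were computed from the recovered reads.

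Tests used limma 3.58.1 in R 4.3.3 (1 mean per population, variance trend) over all 14560 genes, and were tested on simulated data. Alternatives were a replicate block, voom weights, 5 reads added, quantile normalization, scaling to total reads, a level filter, the 2 populations fitted alone and leaving out each library. The members and lists were chosen with earlier results of these data known. Genes were named by rule: in each step the 6 largest rises and falls among called genes that changed by at least 1 without overlap, in each substrate group the 4 with the widest range of means and the 2 highest, a fixed list, and those next to the level threshold. Slc43a1, Slc38a1, Slc41a3, Slc24a3, Slc31a1, Slc39a3, Slc39a10, Slc39a11, Slc25a1, Slc25a4, Slc25a11, Slc25a12 and Slc25a39 fall outside that rule and were chosen after their values were seen. Some genes are not reported here.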

Additional observations from a re-analysis of the deposited data

How the results depend on the processing

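Of the carriers called, 2 of 9, 7 of 19, 39 of 63 and 65 of 92 were called in all 19 alternatives for the step into Pro-BMPs, into Pre-BMPs and into Basophils and for Basophils against DN-GMPs, and 0 called changes turned sign. At the first step, the 8 carriers called higher became 3 with voom weights and 4 with the 2 populations fitted alone, and 5 to 10 with 1 library left out. The 1 called lower became 0 with the 2 populations fitted alone, with the replicate block and with quantile normalization, and 0 to 1 with 1 library left out. At the step into Pre-BMPs, 8 higher became 13 with voom weights, 14 with the 2 populations fitted alone and 5 to 12 with 1 library left out, and 11 lower became 5 to 13. At the last step, 28 higher became 18 to 32 and 35 lower became 25 to 38 with 1 library left out. Basophils against DN-GMPs gave 40 to 48 higher and 39 to 49 lower, and 37 and 55 when scaled to total reads. Slc48a1, which differed by 0.01 between Basophils and Pre-BMPs, was lower in Basophils by a log2 change of -0.32 with quantile normalization and of -0.31 when scaled to total reads. The causes were not tested.

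Replicate numbers are shared by the populations, but no label says that a number marks a mouse. Over 8128 genes, deviations of same-numbered libraries correlated at -0.1225 to 0.1267, with 2 of 18 pairs over 0.1. Libraries of different numbers and populations correlated at -0.1077 to 0.1313, with 2 of 36 pairs over 0.1. Averaged by number, the correlations of 7 of 12 libraries were highest with their own number. With a replicate block, the calls were 8 higher and 0 lower, 7 and 12, 28 and 35, and 44 and 46 in the 4 comparisons. Low reads limit the carriers near 0, whose changes depend on the 0.5 reads of the deposited scale, and 3 libraries a population limit the rest.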
